A study of Rattus norvegicus with 4 samples.

Results

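The BCL2 family is described here through 10 genes chosen by name: Bcl2, Bcl2l1 and Mcl1, whose products protect cells from apoptosis, Bax, Bak1 and Bok, whose products form pores in the outer mitochondrial membrane, and Bad, Bid, Bik and Bcl2l11, which encode BH3-only proteins. Of these 10 genes, 9 were analysed, with 17 transcripts, among 23360 genes in all, and Mcl1 was not analysed here. All 9 reached the mean of 1 TPM needed for testing, and 13 of the 17 transcripts did. TPM is the read count assigned to a transcript, divided by its length and scaled to a total of 1000000 in each sample. Levels can therefore be compared between genes.

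Polyadenylated RNA was measured in 4 samples of INS-1 832/3 cells, a clonal rat insulinoma line that carries the human insulin gene and secretes insulin. In 2 samples the cells had grown as a standard 2D monolayer, and in 2 they had been 3D bioprinted in GelXA LAMININK 411, a gelatin methacrylate hydrogel with laminin that was crosslinked by light after printing. All 4 were harvested after 5 days at passage 3 in the same medium with serum and Geneticin. Printing, light exposure and the hydrogel therefore come together in the 3D group and cannot be told apart.

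The family sets whether the mitochondrial pathway of apoptosis is started. Anti-apoptotic members hold the pore formers BAX and BAK in check, and BH3-only proteins either occupy the anti-apoptotic members or activate the pore formers directly. Open pores release cytochrome c, which sets off caspases. Much of this control acts on the proteins, through phosphorylation, cleavage, binding and degradation, so transcript levels give only the supply of each component. In beta cells the family is known for its part in death under cytokines, excess glucose and endoplasmic reticulum stress.

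All 10 beta cell genes checked, among them Ins1, Ins2 and Iapp, were above 17 TPM in every sample. Of 18 marker genes of other cell types that were analysed, 3 had a mean of at least 1 TPM. Gcg, the glucagon gene, had 41.9 and 73.8 TPM in 2D and 124 and 155 TPM in 3D culture, and it was called higher there (limma adjusted p = 0.0217). The other 4 genes of the alpha and delta cell list lay below 0.24 TPM in every sample, with Irx2 and Hhex listed at 0 throughout, and the sum of the list ran from 42.1 to 74.1 TPM in 2D and from 125 to 156 TPM in 3D culture. The part of Gcg-expressing cells in the results below was not tested. Of the fibroblast, endothelial and leukocyte lists, Pdgfra and Kdr alone had means of at least 1 TPM, neither was called, and Dcn, Cdh5 and Ptprc were listed at 0 in every sample. The summed level of these lists in 2D and 3D culture was 1.89 to 1.91 and 2.26 to 2.35 TPM for fibroblasts, 1.08 to 1.15 and 1.40 to 1.68 TPM for endothelium, and 0.562 to 0.839 and 0.875 to 1.48 TPM for leukocytes. In RNA from whole cultures, a lower level can stand for fewer cells that express a gene or for less RNA in each of them.

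In 3D culture 5 of the 9 genes fell, 1 rose and 3 did not pass the test. Bax, Bak1, Bok, Bad and Bcl2l1 fell by 0.28 to 0.42 on the log2 scale, and Bcl2l11, which encodes the BH3-only protein BIM, rose by 1.28. Bcl2, Bid and Bik were not called. The fall thus took in all 3 pore formers, 1 of the 4 BH3-only genes and 1 of the 2 anti-apoptotic genes analysed. Calls are adjusted p-values below 0.05 in limma's moderated test of log2(TPM + 1), adjusted by the Benjamini-Hochberg method over 11959 genes. Of all genes tested, 18.5% were called higher and 19.4% lower in 3D culture, and their median log2 fold change was -0.0032. For the members these values were 11.1%, 55.6% and -0.28. The members were chosen with earlier results of these data known, so this comparison is a description and not a test. In TPM as deposited, before scaling between samples, the cultures of the 2 groups did not overlap in any of the 9 genes. The same held for 74.2% of all genes tested. For Bcl2 and Bik it does not hold after the scaling used in the test.

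**Figure D1:**
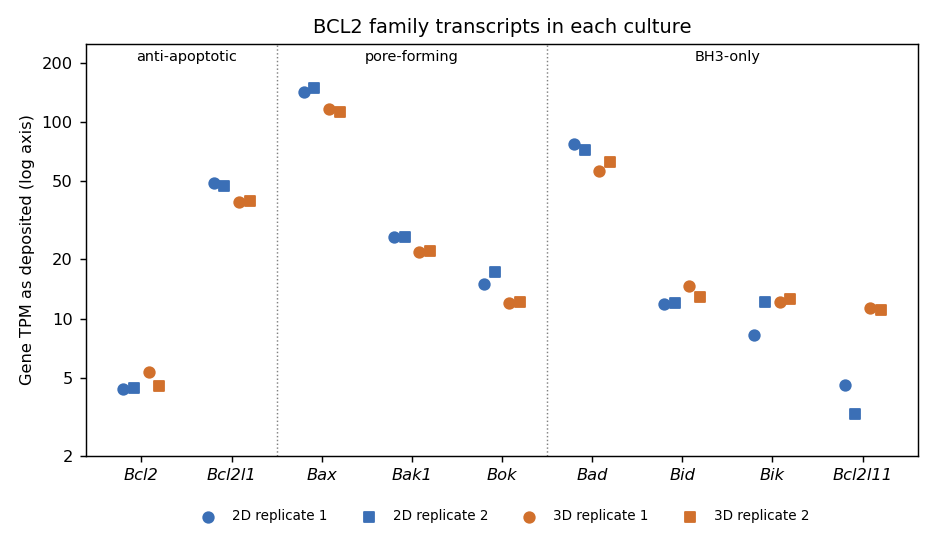
Gene TPM as deposited, on a log axis, for the 9 members in each of the 4 cultures (circles, replicate 1; squares, replicate 2; blue, 2D monolayer; orange, 3D bioprinted). Bax and Bad lie highest in every culture, and Bcl2l11 moves from 4.60 and 3.26 TPM in 2D to 11.3 and 11 TPM in 3D culture.

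Permuting 2 against 2 cultures exactly gives no two-sided p below 0.333, and the calls therefore depend on limma's pooling of the spread across genes. With 3D replicate 1 left out, no member was called (limma; 6 had an unadjusted p below 0.05), and with 3D replicate 2 left out Bcl2l11 alone was. All 6 genes kept their direction with any one culture left out.

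The promoters of Bad and Bcl2l11 are shown because these BH3-only genes moved in opposite directions and both hold the letters GTAAACA, the core recognized by FOXO transcription factors, which are known regulators of Bcl2l11. The sequences are those of RefSeq on build GRCr8, read 5′ to 3′ on the strand of the gene over the 250 bases before its start, and capitals mark the match. The Bad sequence is chr1:213562864-213563113 on the plus strand, with the match on the opposite strand, so that it reads TGTTTAC. The Bcl2l11 sequence is chr3:135819792-135820041 on the plus strand, with the match on the strand shown.
Bad: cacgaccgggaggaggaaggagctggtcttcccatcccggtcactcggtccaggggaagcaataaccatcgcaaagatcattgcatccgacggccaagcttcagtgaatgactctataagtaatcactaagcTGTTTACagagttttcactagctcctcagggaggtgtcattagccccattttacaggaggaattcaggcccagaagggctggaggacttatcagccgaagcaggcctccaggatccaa
Bcl2l11: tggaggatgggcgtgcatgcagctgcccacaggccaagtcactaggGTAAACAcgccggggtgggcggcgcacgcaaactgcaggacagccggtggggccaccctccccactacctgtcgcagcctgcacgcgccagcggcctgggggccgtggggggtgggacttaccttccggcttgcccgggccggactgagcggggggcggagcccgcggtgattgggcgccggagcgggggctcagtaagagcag
Searched on both strands, the motif was present before the start of these 2 genes among the 7 members with a promoter entry (Bax, Bok and Bik have none), which hold 10 entries, and in 3.21% of all 33469 promoter entries. A second motif searched, the E-box CACGTG, was in none of the member entries and in 5.59% of all. The Bcl2l11 sequence has a GC content of 72.0% and that of Bad 52.4%. The match is one of letters, and binding was not measured.

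Among the pore formers, Bax had the highest level of all 9 genes. BAX moves from the cytosol to mitochondria when it is activated. Bax transcripts were at 142 and 149 TPM in the 2D cultures and at 117 and 113 TPM in the 3D cultures, so that both 3D values lay below both 2D values. The change in log2 was -0.38 (SE 0.070, 95% interval -0.56 to -0.21, limma adjusted p = 0.0127). Over 13 other settings it stayed between -0.46 and -0.31 and its adjusted p between 0.0081 and 0.114.

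Bak1 encodes BAK, which resides in the outer mitochondrial membrane. It had 25.9 TPM in both 2D cultures and 21.8 and 21.9 TPM in the 3D cultures. The replicates thus differed by far less than the groups did, and the change in log2 was -0.28 (SE 0.062, limma adjusted p = 0.0216, 0.0162 to 0.137 over 13 other settings). The call of Bak1 was lost without the expression filter (limma adjusted p = 0.0795) and with 2D replicate 2 or either 3D culture left out. Bok, whose product can permeabilize the membrane without BAX or BAK, had 15.0 and 17.2 TPM in 2D and 12.0 and 12.2 TPM in 3D culture. This was the largest fall among the 9 genes in log2 fold change, -0.42 (SE 0.099, limma adjusted p = 0.0242, 0.0108 to 0.173 over 13 other settings), and its interval of -0.67 to -0.18 overlaps those of Bax, Bak1, Bad and Bcl2l1. Differences between the falls of single members were not tested.

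The BH3-only genes did not move together. Bad encodes a protein that binds BCL-XL and BCL2, and that is held in the cytosol by 14-3-3 proteins when growth factor signals phosphorylate it. Its level was second to Bax, with 77.2 and 72.0 TPM in 2D and 56.6 and 62.4 TPM in 3D culture. The values of the groups did not overlap, and the change in log2 was -0.36 (SE 0.063, 95% interval -0.52 to -0.21, limma adjusted p = 0.0111, 0.0068 to 0.0997 over 13 other settings).

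Bcl2l11 had 4.60 and 3.26 TPM in the 2D cultures and 11.3 and 11 TPM in the 3D cultures. BIM binds every major anti-apoptotic member and can activate BAX and BAK. Both 3D cultures stood more than 6 TPM above both 2D cultures, a ratio of means of 2.84. The difference of 1.28 in log2 (SE 0.127, 95% interval 0.96 to 1.6, limma adjusted p = 0.0042) ranked 102nd from the highest among the 11959 genes tested. It ranged from 1.11 to 1.46 over 13 other settings, with adjusted p between 4.87e-04 and 0.0764. It lay above 0.05 without the expression filter and with 3D replicate 1 left out (0.0575).

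Bid and Bik were not called. Bid encodes the protein that caspase-8 cleaves to carry death receptor signals to mitochondria. Its transcripts were at 11.8 and 11.9 TPM in 2D and 14.7 and 12.9 TPM in 3D culture. The 3D values were the higher ones, but the log2 fold change was 0.16 with an interval from -0.064 to 0.38 (limma adjusted p = 0.204). Bik, whose product acts largely at the endoplasmic reticulum, had 8.23 and 12.1 TPM in 2D and 12.2 and 12.6 TPM in 3D culture. Here the 2D cultures differed from each other by more than the 3D cultures did from 2D replicate 2, and the interval ran from -0.22 to 0.70 (limma adjusted p = 0.334). With 2D replicate 1 left out the log2 fold change was -0.049, and with 2D replicate 2 left out it was 0.53 and called (limma adjusted p = 0.0216).

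On the anti-apoptotic side, Bcl2l1, the gene of BCL-XL, carried most of the transcripts and fell. It had 49.1 and 47.1 TPM in 2D and 39.1 and 39.6 TPM in 3D culture, with the groups well apart. The change in log2 was -0.32 (SE 0.053, 95% interval -0.46 to -0.19, limma adjusted p = 0.010, 0.0064 to 0.0950 over 13 other settings). Bcl2, the founding member of the family, had 4.38 and 4.43 TPM in 2D and 5.32 and 4.54 TPM in 3D culture. In TPM as deposited, the second 3D culture lay only just above the 2D cultures. The log2 fold change of 0.095 had an interval from -0.17 to 0.36 (limma adjusted p = 0.503). With 3D replicate 1 left out it was -0.0076.

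**Figure D2:**
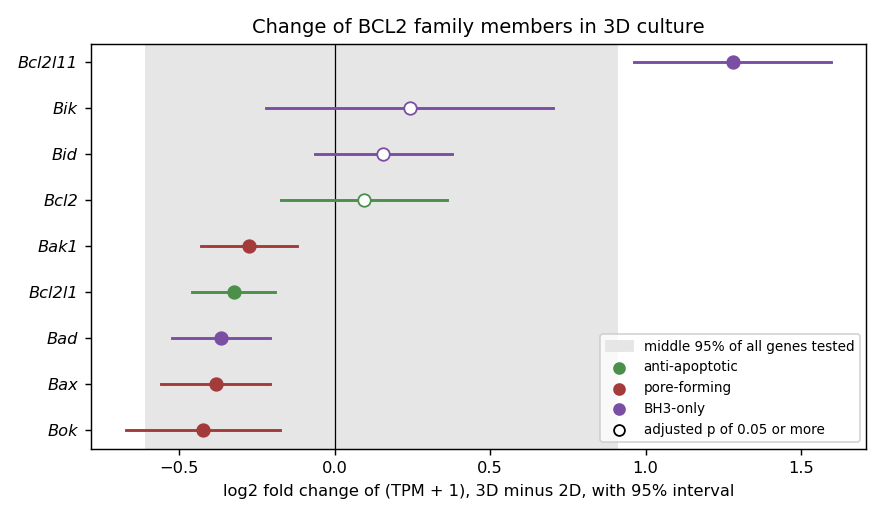
Log2 fold change of TPM + 1 in 3D against 2D culture for the 9 members, with 95% intervals from limma (filled, adjusted p below 0.05; open, 0.05 or more; colours, role). The grey band holds the middle 95% of all 11959 genes tested, from -0.61 to 0.91; Bcl2l11 at 1.28 lies above it and the other 8 lie inside it.

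The first 4 places in the order of levels were the same in both groups, and the places below them differed. Bax came first, then Bad, Bcl2l1 and Bak1, with no overlap between neighbours in either group. In 2D culture Bok, Bid, Bik, Bcl2 and Bcl2l11 followed, and the ranges of Bid and Bik and those of Bcl2 and Bcl2l11 overlapped. In 3D culture Bid, Bik, Bok, Bcl2l11 and Bcl2 followed, with values from 14.7 down to 11 TPM for the first 4 of these. Bcl2l11 thus stood beside Bcl2 in 2D culture and beside Bok in 3D culture. Bax ranked 929th in mean TPM among the 23360 genes and Bcl2 9661st.

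Summed pro- and anti-apoptotic transcripts fell side by side, although Bcl2l11, Bid, Bik and Bcl2 did not fall. The 7 pro-apoptotic members summed to 284 and 292 TPM in 2D and to 245 and 246 TPM in 3D culture, while Bcl2 and Bcl2l1 summed to 53.5 and 51.6 TPM and to 44.4 and 44.2 TPM. The ratio of both sums was 5.32 and 5.65 in the 2D cultures and 5.52 and 5.56 in the 3D cultures. Both 3D values thus lay between those of the 2D cultures. Without Bax, the ratio was 2.67 and 2.76 in 2D and 2.89 and 3.01 in 3D culture, with no overlap. These ratios are formed within a sample, do not depend on scaling between samples, and leave out Mcl1. They describe members chosen with results of these data known, so no test was made.

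The composition behind the ratio of all pro- to anti-apoptotic TPM differed more than its value. Pore-forming transcripts stood at 3.41 and 3.73 times the anti-apoptotic sum in 2D and at 3.39 and 3.32 times in 3D culture. BH3-only transcripts stood at 1.90 and 1.93 times in 2D and at 2.13 and 2.24 times in 3D culture, where both values were higher. The BH3-only sum itself was not higher, at 102 and 99.3 TPM in 2D and 94.8 and 99.0 TPM in 3D culture, while the anti-apoptotic sum was lower. Bax took 49.8% and 51.1% of pro-apoptotic TPM in 2D and 47.5% and 45.9% in 3D culture. Within the BH3-only sum, the share of Bcl2l11 was 4.51% and 3.29% in 2D and 12.0% and 11.1% in 3D culture, and the share of Bad was 75.8% and 72.5% in 2D and 59.7% and 63.1% in 3D culture.

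Of Bax, Bad and Bcl2l11 set against Bcl2l1, the ratio of Bcl2l11 alone did not overlap between groups. Bid and Bik, which in TPM as deposited also lay higher in both 3D cultures, were not set against Bcl2l1. Bax to Bcl2l1 was 2.89 and 3.16 in 2D and 2.98 and 2.84 in 3D culture, with overlapping groups. Bad to Bcl2l1 was 1.57 and 1.53 in 2D and 1.45 and 1.58 in 3D culture, again with overlap. Bcl2l11 to Bcl2l1 went from 0.0936 and 0.0693 to 0.290 and 0.277, a 3.52-fold change of the geometric means. The ratio of Bcl2l1 to Bcl2 was 11.2 and 10.6 in 2D and 7.36 and 8.73 in 3D culture.

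**Figure D3:**
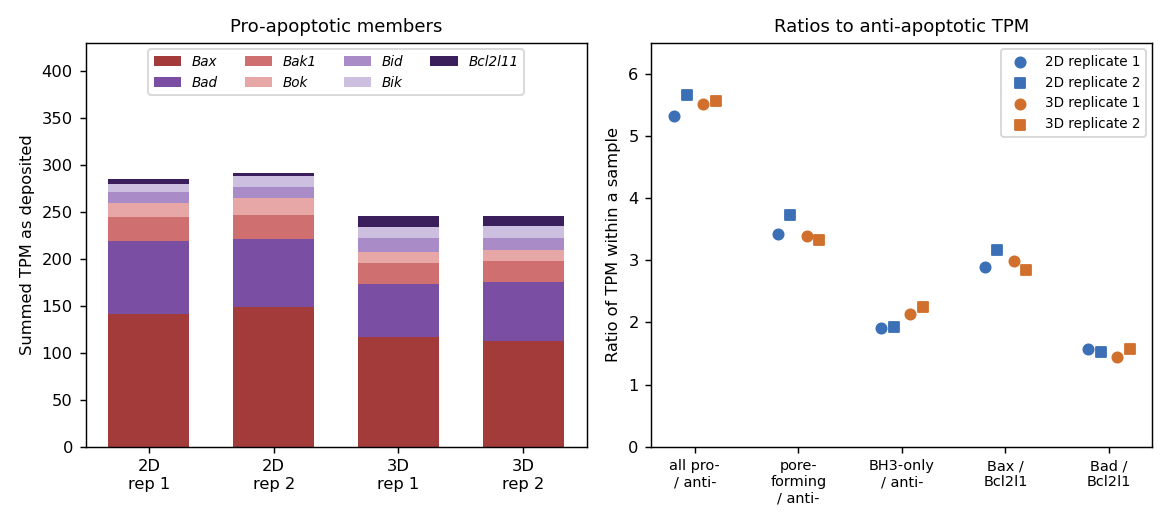
Left, stacked bars of the TPM of the 7 pro-apoptotic members in each culture, from 284 and 292 TPM in 2D to 245 and 246 TPM in 3D culture. Right, ratios of TPM within each culture (blue, 2D; orange, 3D; circles, replicate 1; squares, replicate 2): the ratio of all pro- to anti-apoptotic TPM overlaps between groups at 5.32 to 5.65, while the BH3-only ratio is higher in both 3D cultures.

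Single transcripts showed whether a gene moved as a whole. Of 13 transcripts tested, 6 were called, 2 of them higher and 4 lower, beside 23.1% of the 15018 transcripts tested overall. Salmon divides reads that fit several transcripts of a gene between them, so values of transcripts with shared exons are less certain than gene sums. Without the intensity trend 2 of the 13 were called, and with 2D replicate 2, 3D replicate 1 or 3D replicate 2 left out none was (limma; 6 to 8 had an unadjusted p below 0.05).

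The transcripts of Bax moved in opposite directions. ENSRNOT00000028328.5, the main one, had 133 and 141 TPM in 2D and 102 and 101 TPM in 3D culture, a difference of -0.47 in log2 (SE 0.071, limma adjusted p = 0.0220). ENSRNOT00000087061.1 had 8.74 and 7.93 TPM in 2D and 14.5 and 12.1 TPM in 3D culture, a difference of 0.57 in log2 (SE 0.11, limma adjusted p = 0.0342). The share of this minor transcript in Bax was 6.17% and 5.32% in 2D and 12.5% and 10.7% in 3D culture, with no overlap. In a test of the balance itself, the log2 ratio of the minor transcript to the rest of the gene differed by 1.05 (95% interval 0.47 to 1.63), with an adjusted p of 0.280 in limma over 5520 such balances. It did not pass, and of all balances tested 0.109% did. None of the 8 balances of members was called (limma; 2 had an unadjusted p below 0.05, both of Bax, which mirror each other).

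Bcl2l11 is listed with 2 transcripts, and both lay higher in 3D culture. ENSRNOT00000051069.5 had 3.17 and 3.26 TPM in 2D and 7.19 and 7.32 TPM in 3D culture, a difference of 0.93 in log2 (SE 0.094, limma adjusted p = 0.0170). ENSRNOT00000022596.6 had 1.42 TPM in 2D replicate 1, was listed at 0 in 2D replicate 2, and had 4.15 and 3.68 TPM in 3D culture (limma adjusted p = 0.0630). The larger transcript, whose 2D cultures agree within 0.1 TPM, carried 69.0% and 100% of Bcl2l11 in 2D and 63.4% and 66.5% in 3D culture.

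For the other members 1 transcript dominated. ENSRNOT00000010762.7 of Bcl2l1 carried 91.0% to 92.7% of the gene in the 4 cultures and fell with it, from 44.7 and 43.7 TPM to 35.6 and 36.6 TPM (-0.33 in log2, limma adjusted p = 0.0242). ENSRNOT00000091419.1 of the same gene had 4.35 and 3.42 TPM in 2D and 3.50 and 3.08 TPM in 3D culture, with overlap and no call (limma adjusted p = 0.289). ENSRNOT00000000576.5 of Bak1 fell from 25.6 and 25.7 TPM to 21.8 and 21.9 TPM (limma adjusted p = 0.0448). Of the Bok transcripts, ENSRNOT00000024695.6 had 13.6 and 15.0 TPM in 2D and 10.7 and 11.9 TPM in 3D culture (limma adjusted p = 0.0670), and ENSRNOT00000024526.4 ranged from 0.295 to 2.22 TPM over the 4 cultures (limma adjusted p = 0.202). Neither passed, although their sum did. ENSRNOT00000003768.2 of Bcl2 had 4.17 and 3.89 TPM in 2D and 4.42 and 4.16 TPM in 3D culture, with overlap and no call (limma adjusted p = 0.805). Bad, Bid and Bik are listed with 1 transcript each.

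**Figure D4:**
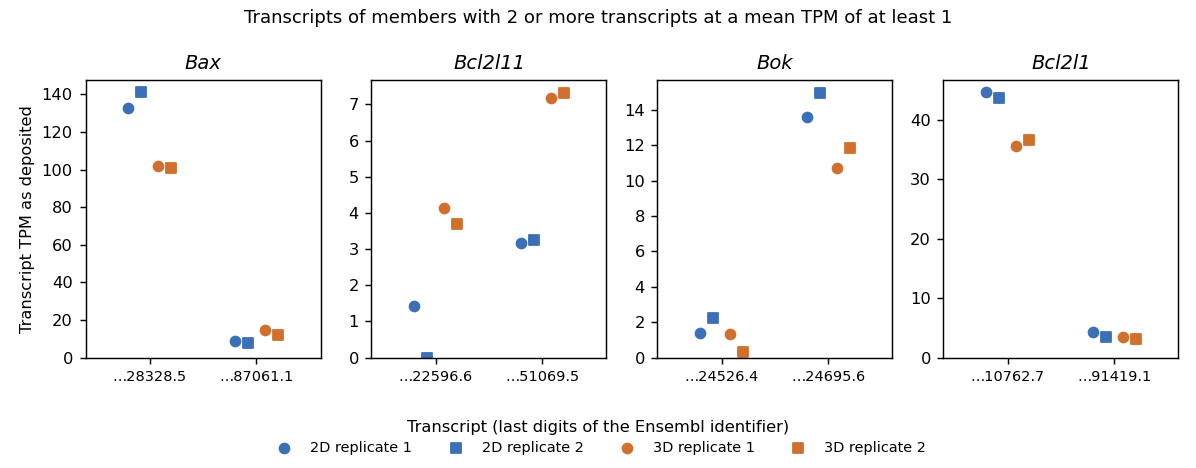
Transcript TPM as deposited for Bax, Bcl2l11, Bok and Bcl2l1, each on its own linear axis (blue, 2D; orange, 3D; circles, replicate 1; squares, replicate 2). In Bax the main transcript is lower and the minor one higher in both 3D cultures; the smaller Bcl2l11 transcript is listed at 0 in 2D replicate 2.

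Further relatives of the family were measured in 12 of 14 listed genes, and 6 passed the expression filter. Bnip3, whose mitochondrial product acts in mitophagy and is induced by low oxygen, rose from 64.2 and 68.1 TPM to 90.3 and 92.0 TPM (0.41 in log2, limma adjusted p = 0.0105). Becn1, the autophagy gene whose product has a BH3 motif and binds BCL2, rose from 73.7 and 70.2 TPM to 86.7 TPM in both 3D cultures (0.22 in log2, limma adjusted p = 0.0231). Bnip3l, a relative of Bnip3, had 11.4 and 12.2 TPM in 2D and 12.9 and 13.5 TPM in 3D culture and was not called (limma adjusted p = 0.317). Bcl2l2, which encodes the anti-apoptotic protein BCL-W, had 26.6 and 25.4 TPM in 2D and 27.1 and 29.1 TPM in 3D culture, with no call (limma adjusted p = 0.426). Its ratio to Bcl2l1 was 0.542 and 0.540 in 2D and 0.693 and 0.733 in 3D culture.

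Bcl2l13 and Bcl2l14 overlapped between groups, at 16.0 to 22.3 TPM and at 2.57 to 3.08 TPM, and were not called. The others lay below the filter and were not tested. Bmf, a BH3-only gene linked to loss of attachment, had 0.409 and 0.316 TPM in 2D and 0.793 and 0.983 TPM in 3D culture. Bcl2l12 had 0.824 and 0.662 TPM in 2D and 0.474 and 0.408 TPM in 3D culture. Bcl2l10 and Bcl2l15 stayed at or below 0.250 TPM, and Bcl2a1 and Pmaip1 were listed at 0 in all 4 cultures. Bbc3 and Hrk were not analysed here. The anti-apoptotic relatives were also added to the anti-apoptotic sum, and the BH3-only and BNIP relatives to the pro-apoptotic sum. The ratio was then 5.41 and 5.73 in 2D and 6.08 and 5.99 in 3D culture, which no longer overlapped. Bnip3 and Becn1, described above by mitophagy and autophagy, made up most of what was added to the pro-apoptotic sum. This wider ratio is therefore not one of pro-apoptotic genes alone.

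Over all lists of genes that act with the family, 56 were tested, of which 8 were called higher and 16 lower, or 14.3% and 28.6%, beside 18.5% and 19.4% of all genes tested, and their median log2 fold change was -0.040. Without scaling between samples the split was 9 higher and 10 lower. The counts stood at 0 and 0 with 3D replicate 1 left out and at 1 and 3 with 3D replicate 2 left out. Transcription factors of BH3-only genes moved in both directions. Foxo1 rose from 10.8 and 9.32 TPM to 15.3 and 17.1 TPM (0.60 in log2, limma adjusted p = 0.0075), and Jun also rose (0.49). Ddit3, the gene of the stress factor CHOP, fell from 44.2 and 44.0 TPM to 31.0 and 34.1 TPM (-0.47 in log2, limma adjusted p = 0.0072), as did Foxo4 (-0.53). Foxo3 was not called (0.23, limma adjusted p = 0.153).

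In the list of kinases and 14-3-3 proteins that act on BAD and BIM, 19 genes were tested, with the phosphatase gene Ppp3ca among them. Of these, 1 rose and 2 fell, beside 18.5% called higher and 19.4% lower among all genes tested. Pim1, a kinase that phosphorylates BAD, rose from 7.15 and 6.67 TPM to 11.2 and 10.8 TPM (0.56 in log2, limma adjusted p = 0.0062). Ywhah and Ywhae, which encode 14-3-3 eta and epsilon, fell by 0.35 and 0.26 on the log2 scale (limma adjusted p = 0.0133 and 0.0216). The other 16, Akt1 and Akt2 among them, were not called.

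Among 6 ubiquitin enzymes that act on MCL1 and BIM, 3 rose and 1 fell, with a median log2 fold change of 0.29. The shares called among all genes tested were 18.5% higher and 19.4% lower. Usp9x, a deubiquitinase of MCL1, rose from 32.3 and 26.0 TPM to 42.1 and 40.1 TPM (0.45 in log2, limma adjusted p = 0.0176). The ligase genes Fbxw7 and Huwe1, whose products mark MCL1 for degradation, rose by 0.66 and 0.50 on the same scale (limma adjusted p = 0.0258 and 0.0279). Usp13 fell by 0.28 (limma adjusted p = 0.0260). For Fbxw7 the 2D cultures stood far apart, at 24.1 and 16.0 TPM, below both 3D cultures at 32.2 and 33 TPM.

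Genes for mitochondrial partners and released proteins mostly lay lower, with 6 of 10 called lower, none called higher and a median log2 fold change of -0.20. Of all genes tested, 19.4% were called lower and 50.5% had a log2 fold change below 0. Diablo, whose product blocks inhibitors of caspases, fell from 83.3 and 80.9 TPM to 60.2 and 58.8 TPM (-0.50 in log2, limma adjusted p = 0.0048). Cycs, the gene of cytochrome c, fell from 325 and 314 TPM to 242 and 247 TPM (-0.43 in log2, limma adjusted p = 0.0055). Vdac3, Mtch2, Htra2 and Aifm1 were also called lower, at -0.37 to -0.19.

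Of 9 genes tested in the list of BAG and TMBIM regulators, which also holds Tpt1, 4 were called lower and none higher. Among all genes tested, 19.4% were called lower and 18.5% higher. Bag1, which encodes a binding partner of BCL2, fell from 44.4 and 44.9 TPM to 33.1 and 31.0 TPM (-0.51 in log2, limma adjusted p = 0.0067). Bag3, which encodes a co-chaperone, fell by 0.55 on the log2 scale (limma adjusted p = 0.0069), with both 3D cultures below both 2D cultures. Bag2 (-0.58) and Tmbim4 (-0.22) were called as well. Tmbim6, the gene of BAX inhibitor-1, had 348 and 332 TPM in 2D and 358 and 370 TPM in 3D culture and was not called (limma adjusted p = 0.427).

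**Figure D5:**
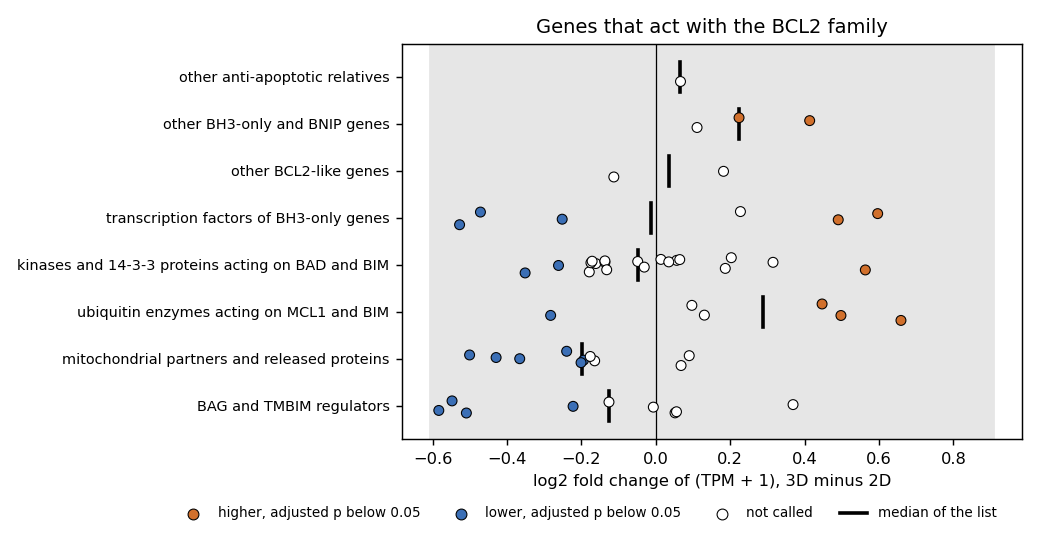
Log2 fold change of TPM + 1 in 3D against 2D culture for each tested gene of the 8 lists that act with the family (orange, called higher; blue, called lower; white, not called; black bars, medians). The grey band holds the middle 95% of all genes tested, from -0.61 to 0.91; 6 of 10 genes for mitochondrial partners and released proteins are called lower, at -0.50 to -0.19.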

How the data were processed

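Stranded messenger RNA libraries were sequenced as 75-base single-end reads. Per the labels and methods, the authors checked reads with FastQC 0.11.8 and quantified them with Salmon 1.2 against rn4 plus the human insulin gene. The authors deposited TPM per transcript, with replicates kept apart. TPM keep no depth, so counting error is unknown and no count test was possible. Values are written with decimal commas. Each sample sums to 1000000.

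TPM were summed per gene symbol. Samples were scaled by the TMM method without weights, with trims of 30% on M and 5% on A, over genes with a mean of at least 1 TPM (factors 0.960 to 1.02). Genes, transcripts or isoform balances with a mean of at least 1 TPM were tested on log2(TPM + 1) with limma 3.58.1 (empirical Bayes with intensity trend) in R 4.3.3, with Benjamini-Hochberg adjustment. A balance is log2 of transcript over the rest of its gene, 1 TPM added to each. Fold changes on this scale understate changes of low genes. Printed TPM are as deposited. The steps were tested on simulated data.

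Groups and replicate numbers came from the sample titles. The labels call the 2 cultures of a group biological replicates and both are of passage 3, so p-values measure the spread between such cultures. The members and lists were chosen with earlier results of these data known. Named are all members, their transcripts at 1 TPM or more, all listed relatives and the 2 genes with the smallest p in each other list. Jun, Foxo4, Foxo3, Akt1, Akt2, Ywhae, Huwe1, Usp13, Vdac3, Mtch2, Htra2, Aifm1, Bag2, Tmbim4, Tmbim6, Tpt1 and Ppp3ca were named after their values were seen. Marchf5 was matched through its older symbol in RefSeq (GRCr8), and promoter sequences came from the same source. Alternatives were other scaling, filters, pseudocounts, empirical Bayes options, the replicate block, a stricter threshold and each culture left out. Filters, empirical Bayes options and the replicate block leave the log2 fold changes of genes unchanged. The ranges of these fold changes therefore reflect scaling, pseudocounts and left-out cultures. E2f1, Col1a2 and Pecam1 were not analysed here, and some listed genes are not reported here.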

Additional observations from a re-analysis of the deposited data

How the results depend on the processing

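The count of 6 members called was unchanged under both other scalings, a filter at 5 TPM, pseudocounts of 0.1 and 0.5, no intensity trend and robust empirical Bayes. It was 0 without the expression filter, where limma called 2 of all 23360 genes (6 members had an unadjusted p below 0.05), and 1 at an adjusted p below 0.01, where 1412 genes were called in all. In the same settings the transcripts called numbered 0 and 0 in place of 6, the pathway genes 0 and 8 in place of 24, and no isoform balance was called. Without the intensity trend 2 transcripts were called. With each culture left out in turn, members called ran from 0 to 6, transcripts from 0 to 4, pathway genes from 0 to 29 and isoform balances stayed at 0. A left-out culture leaves 1 sample in its group, assumed to vary like the other group, and 135 genes were called in all with 3D replicate 1 left out. The log2 fold change reversed for Bik with 2D replicate 1 left out (-0.049) and for Bcl2 with 3D replicate 1 left out (-0.0076). Over the 4 omissions Bik ran from -0.049 to 0.53 and Bcl2 from -0.0076 to 0.20. The log2 change of the pro- to anti-apoptotic ratio was 0.015, and it was 0.12 without Bax and from -0.030 to 0.059 with each culture left out. With further relatives added, mostly Bnip3 and Becn1 on the pro-apoptotic side, it was 0.12. The cause of these shifts was not tested beyond the fewer samples or added genes of each setting.

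Samples with the same replicate number did not deviate together, so the numbers pair nothing (correlation of deviations -0.0062 across 11959 genes). With the replicate block, 6 members, 6 transcripts and 24 pathway genes were called. TPM carry no depth, so no detection limit is given.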
